A study of Zea mays with 8 samples.

Results

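The elongation zone and the division zone of maize leaf 6 were compared in plants grown at low nitrogen. The members are the loci whose mean reached 1 FPKM (fragments per kilobase of transcript, scaled to the library's mapped fragments) in either zone at low nitrogen, and 23942 of 43110 listed loci met that rule. The comparison rested on 4 libraries, with 2 from each zone. All plants were of the inbred line B73 in hydroponic culture, with no allele or transgene named in the labels. Low nitrogen (LN) was 0.04 mM, and the 4 libraries at high nitrogen (HN, 4 mM; 2 per zone) were used for the shared estimate of spread and to set the zone difference at the other supply beside it. The study asked how nitrogen shortage changes cell division and elongation in the growing leaf, with gibberellins as one candidate. The labels number 2 biological replicates per tissue and do not say whether each came from separate plants or a pool, so p-values measure the spread between these samples.

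A grass leaf grows from its base. Cells divide in a basal zone by repeated rounds of DNA replication and mitosis, are carried upward by the growth of those below, then stop dividing and lengthen many times over while the wall is loosened, new cellulose is laid down and the vacuole takes up water. Chloroplast build-up and C4 photosynthesis follow as the cells move out of the growth zone. A harvest of zones is a sample of mixed tissues, so a lower level can come from fewer cells of a type or from less RNA per cell, which these bulk libraries cannot tell apart.

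Levels are given as FPKM in replicate 1 and replicate 2, in that order. A zone difference is the mean of log2(FPKM + 1) in elongation minus that in division, with the standard error (SE) from limma. It understates the change of loci near or below 1 FPKM. A locus was called when its Benjamini-Hochberg adjusted p over all 23942 loci was under 0.05. Summed FPKM ran from 652957 to 746006 in the LN libraries and was highest of all 8 in replicate 2 of the HN elongation zone. The files used here give FPKM without read counts, so depth is unknown. Among loci low in both LN division replicate 1 and another library, at most 23.6% lay close to the most common ratio of the 2. The 2 LN division libraries correlated at r = 0.97 across loci and the 2 LN elongation libraries at 0.96, while pairs from different zones reached 0.74 to 0.75. Loci are not independent replicates, and these values describe the libraries only.

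At low nitrogen 6474 loci were higher in the elongation zone (27.0% of those tested) and 5546 were lower (23.2%), so that 50.2% differed. The median difference over all loci was 0.07 on the log2 scale, close to 0. Both elongation libraries were above both division libraries at 10377 loci (43.3%) and below both at 8917 (37.2%). Of the called loci, 4034 higher and 3437 lower differed by at least 1 on the log2 scale, and 424 and 350 by at least 3. Beyond 4 the sides were unequal, with 173 loci higher in elongation and 75 lower, and beyond 5 there were 81 and 13. Among loci that averaged 5 FPKM or more in 1 zone, 115 were listed at 0 in both division libraries and 55 at 0 in both elongation libraries. The 27.0% and 23.2% over all loci are the background for each list count that follows. A member at or above 1 FPKM in 1 zone alone was tested because of the zone where it is high, so list counts describe the tested members and not every listed gene. For any single locus below whose mean is under 1 FPKM in the other zone, the direction was likewise set by the rule. By chromosome the share of called loci ran from 26.1% to 29.3% higher and 22.5% to 24.4% lower over chromosomes 1 to 10. Of 2384 tested loci with no gene identifier 20.8% were higher and 15.4% lower, and that class was not tested against the rest. The 4 loci nearest to the rule's limit had a higher zone mean of 1.00026 and 1.00114 FPKM just inside, and 0.999545 and 0.999695 FPKM just outside.

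**Figure D1:**
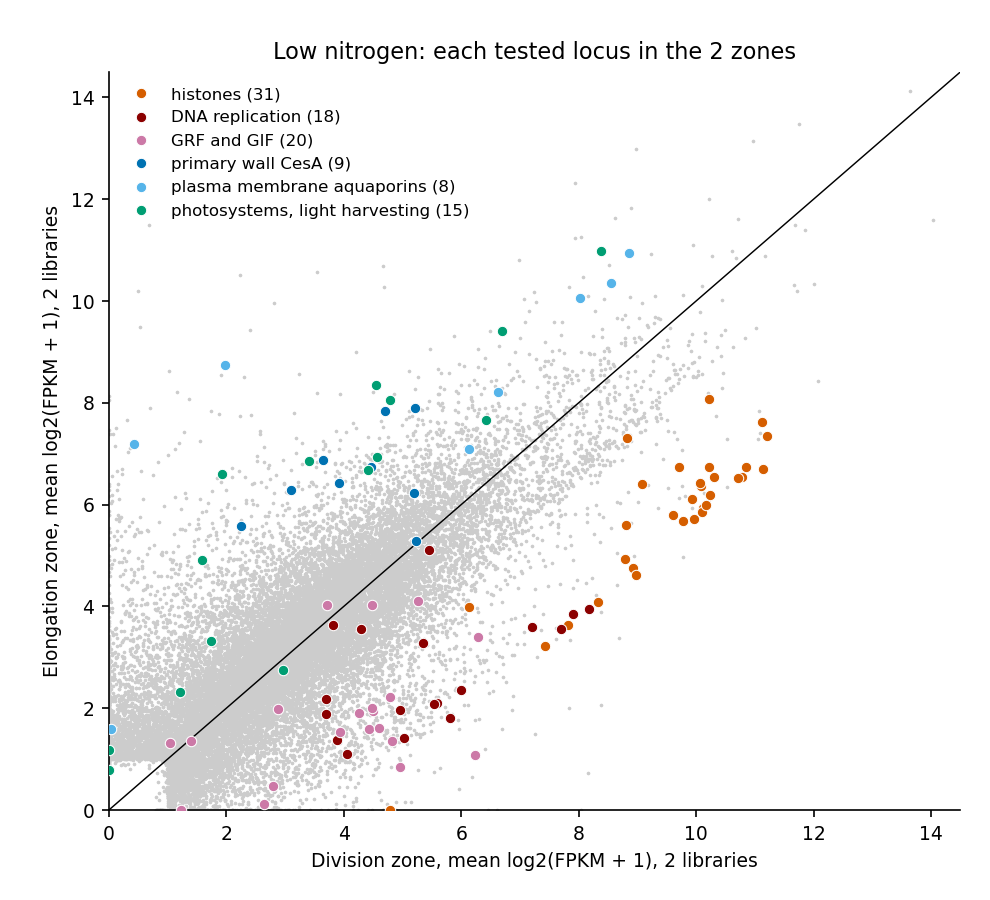
Each grey point is a tested locus, placed by its mean log2(FPKM + 1) in the 2 LN division libraries (x axis) and the 2 LN elongation libraries (y axis), and the line marks equal levels. Histone, DNA replication and most GRF and GIF loci lie below the line, while most cellulose synthase, aquaporin and photosystem loci lie above it.

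Genes of DNA replication and histones were called almost wholly on the division side. All 31 listed histone loci passed the level rule and all 31 were lower in elongation, with a median difference of -4.05 against 0.07 over all loci. Summed histone FPKM was 26066 and 36079.5 in the division libraries and 2530.5 and 2250.5 in the elongation libraries. The locus named H4C7 at chromosome 2, 14631515 to 14632312 (positions are on B73 RefGen_v3) had 1935 and 2642 FPKM in division. It had 113 and 94.4 FPKM in elongation, a difference of -4.44 ± 0.34 (SE), with limma adjusted p = 1.0e-04. Histones H4 and H3 form the core of the nucleosome, and 15 of the loci are named H4C7 and 9 H3C2, near-identical copies among which reads may have been shared out, so the single loci are uncertain. The 6 H4C7 loci among the largest named falls ranged from -4.24 to -4.78, and at the last of them both elongation libraries were listed at 0 against 21.6 and 32.3 FPKM in division. The histone H2B gene his2b2 had 1050.5 and 1245 FPKM in division and 69.1 and 56.6 in elongation. Hist1h3b, the histone with the smallest p, fell from 69.2 and 68.5 to 15.8 and 14.1 FPKM, a difference of -2.13 ± 0.15 (SE), with limma adjusted p = 6.6e-05.

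Of 18 tested DNA replication genes (of 19 listed), 16 fell and none rose, with a median of -3.23. The gene pcna2, which encodes the sliding clamp that holds DNA polymerase on its template, had 268 and 313 FPKM in division and 17.1 and 12.2 in elongation. The groups did not overlap, and the difference was -4.24 ± 0.26 (SE), with limma adjusted p = 4.7e-05. Subunits of the helicase ring that opens the double helix fell too, among them ROA1 and ROA4, whose name stands for replication origin activator. ROA1 had 63.7 and 61.8 FPKM in division and 4.45 and 3.87 in elongation, and ROA4 had 32.3 and 31.0 FPKM in division and 1.73 and 1.57 in elongation, with differences of -3.63 ± 0.13 and -3.62 ± 0.13 (SE) and limma adjusted p = 1.1e-05 and 1.1e-05. MCM7, another subunit of that ring, fell from 49.8 and 44.4 to 3.98 and 2.67 FPKM, a log2 difference of -3.49. SLD5, a subunit of the GINS complex that travels with that helicase, fell from 49.2 and 62.3 to 2.76 and 2.27 FPKM, although its span overlaps another locus. Both genes that missed the threshold were lower in the 2 elongation libraries too. Top1, a topoisomerase, differed by -0.35 ± 0.23 (SE) with limma adjusted p = 0.24, and DRTS, the enzyme that makes thymidylate, a difference of -0.18 ± 0.22 (SE) with limma adjusted p = 0.52.

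Chromatin genes followed with more spread. Among 52 tested genes of chromatin and DNA methylation, 30 fell, 2 rose and 20 were not called, around a median of -0.90. The DNA methyltransferase genes DMT105 and met2 were the 2 with the smallest p. DMT105 had 83.9 and 77.6 FPKM in division and 6.15 and 5.03 in elongation. The gene met2 had 93.8 and 97.8 FPKM in division and 7.90 and 7.15 in elongation, and neither showed any overlap between zones, with differences of -3.64 ± 0.14 and -3.51 ± 0.14 (SE) and limma adjusted p = 1.3e-05 and 1.3e-05. The chromatin protein genes nfd101 and nfd106, which belong to the HMG group of small DNA-bending proteins, had higher levels in division than the methyltransferases. The level of nfd101 was 939.9 and 1038 FPKM in division and 53.8 and 46.2 in elongation, a difference of -4.28 ± 0.24 (SE), with limma adjusted p = 3.3e-05. For nfd106 the values were 390.3 and 417 FPKM in division and 21.0 and 19.8 in elongation and the difference -4.24 ± 0.19 (SE), with limma adjusted p = 2.0e-05. On the separate list of HMG names 5 of 6 fell, and nfd102, the exception, had 83.8 and 99.9 FPKM in division and 69.8 and 79.6 in elongation.

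Most genes that drive the cell cycle fell. Of 14 tested cyclin, kinase and checkpoint genes 11 fell and 1 rose, with a median of -1.80. The gene named cyclin11 fell most, from 26.6 and 34.0 to 1.18 and 0.797 FPKM, a difference of -3.97 ± 0.20 (SE), with limma adjusted p = 2.7e-05. The genes cyclin9, cyc3 and cyclin8 differed by -2.70, -2.68 and -3.17 on the log2 scale. Those 4 genes were low but above 0 in every elongation library, between 0.797 and 5.79 FPKM. By contrast, cycD2, which belongs to the D-type cyclins that respond to growth signals, and cyclin-C did not pass. The values of cycD2 were 27.5 and 35.1 FPKM in division and 39.4 and 45.5 in elongation, and its limma adjusted p was 0.12.

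The kinesin motors, which move along microtubules, and tan1, which positions the division plane in maize, had members on both sides. Of 8 tested, 4 fell and 3 rose. Among the fallers, krp13 went from 51.6 and 49.2 to 6.18 and 3.77 FPKM and tan1 from 8.55 and 14.51 to 0.752 and 0.678. In the opposite direction, krp15 had 13.8 and 11.7 FPKM in division and 56.5 and 56.3 in elongation, and its zones did not overlap. The differences were -3.13 ± 0.20 for krp13, -2.83 ± 0.32 for tan1 and 2.06 ± 0.20 for krp15 (SE), with limma adjusted p = 5.3e-05, 5.0e-04 and 2.5e-04.

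Transcription factors of the leaf base were among the largest falls. GIF1, a co-activator that pairs with growth-regulating factors (GRF) to keep leaf cells dividing, had the largest fall of any locus with an informative name. It lies at chromosome 1, 273393236 to 273396891, and had 65.6 and 84.7 FPKM in division and 1.62 and 0.726 in elongation, a difference of -5.15 ± 0.30 (SE), with limma adjusted p = 3.8e-05. Of 20 tested GRF and GIF genes 16 fell and none rose, with a median of -2.44. GRF3 had 26.4 and 34.4 FPKM in division and 1.14 and 0.519 in elongation, and GRF5 had 19.1 and 24.6 FPKM in division and 3.06 and 2.68 in elongation. Neither overlapped between zones. Among the 4 that missed the threshold, GRF4 had 18.8 and 24.0 FPKM in division and 15 and 15.7 in elongation and GIF2 had 11.5 and 12.9 FPKM in division and 15.2 and 15.5 in elongation, so that GIF2 was the one of the pair with higher values in elongation.

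YABBY factors, which help set the lower or upper face of a leaf and its blade growth, did not move as one. Of 12 tested polarity genes 5 fell and 2 rose, although 3 of the 12 met the level rule in division only. Among the 9 that met it in both zones, 2 fell and 2 rose. The gene yab14 at chromosome 10, 133133767 to 133136401 had 27.9 and 29.6 FPKM in division and 0.0866 and 0.136 in elongation, a difference of -4.74 ± 0.17 (SE), with limma adjusted p = 1.1e-05. The genes yab10 and yabby15 fell too, with log2 differences of -3.33 and -2.96, as did DL1, related to the rice midrib gene DROOPING LEAF, with -1.90. The most abundant members without a call were rld1 and rld2, class III homeodomain genes of the upper leaf face. The values of rld1 were 37.9 and 26.9 FPKM in division and 33.8 and 28.4 in elongation, with overlapping zones and limma adjusted p = 0.87.

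The division zone label was checked against the replication and histone genes above, which were high in both division libraries, and the harvest against markers of neighbouring tissue. The KNOX and WOX list had 25 loci, of which 6 passed the level rule. KN-1, which marks the shoot meristem and stem, was listed at 0 in all 4 LN libraries, and lg3 and lg4 did not exceed 0.0647 FPKM in any of them. KNOX1 was the one tested member called higher in elongation. Its values were 0.163 and 0.282 FPKM in division and 18.6 and 21.0 in elongation, a difference of 4.09 ± 0.17 (SE), with limma adjusted p = 1.5e-05. The gene wox4, whose Arabidopsis namesake acts in vascular stem cells, had 1.49 and 2.31 FPKM in division and was listed at 0 in both elongation libraries. That gene and KNOX1 each met the level rule in 1 zone only, and none of the 4 members that met it in both was called. The 6 tested members summed to 41.4 FPKM in division and 58.5 in elongation, so the list was not silent in either zone. For the ligule region, lg2 gave 2.23 and 2.61 FPKM in division and 0.0269 and 0.0880 in elongation, and lg1 0.943 and 0.981 FPKM in division and 2.26 and 2.35 in elongation. Both ligule genes were thus low in each zone, and they differed in opposite directions, with log2 differences of -1.69 and 0.75 and limma adjusted p = 2.4e-04 and 0.011.

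**Figure D2:**
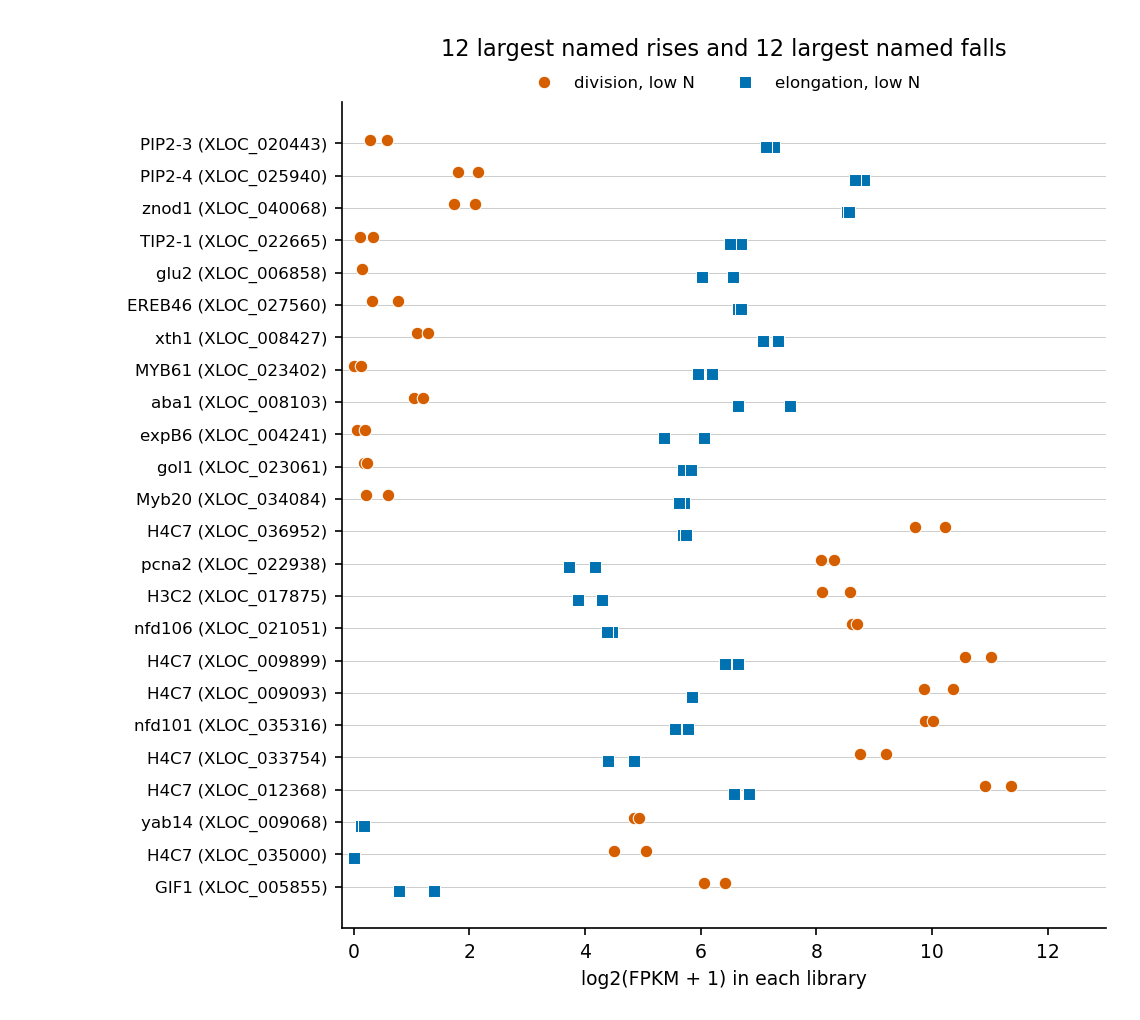
Points show log2(FPKM + 1) in each LN library (circles division, squares elongation) for the 12 largest named rises and the 12 largest named falls, one locus per row. Separation of the zones was part of how the 24 loci were chosen, and the plot shows the size of the gap beside the distance between replicates.

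On the elongation side the largest named rises were water channels. PIP2-3, an aquaporin of the plasma membrane at chromosome 4, 143891075 to 143894123, had 0.218 and 0.487 FPKM in division and 153 and 138 in elongation, a difference of 6.77 ± 0.27 (SE), with limma adjusted p = 1.4e-05. Its relative PIP2-4 went from 2.504 and 3.45 to 449 and 405 FPKM, a difference of 6.76 ± 0.28 (SE), with limma adjusted p = 1.5e-05. Neither exceeded 3.45 FPKM in division, and both were at 138 FPKM or more in every elongation library. PIP2-3 met the level rule in elongation only, so its direction was set by the rule. Of 8 tested plasma membrane aquaporins 7 rose and none fell, with a median of 1.92. Among the 6 that met the level rule in both zones, 5 rose and none fell. The most abundant, PIP1-1, was already expressed in division at 402 and 534 FPKM and reached 2167 and 1794 in elongation. PIP2-2 missed the threshold at 56.4 and 84.7 FPKM in division against 142 and 129.6 in elongation, with limma adjusted p = 0.082, although its zones did not overlap. Of the tonoplast aquaporins, which carry water into the vacuole, 3 of 5 rose and 1 fell, although 3 met the level rule in elongation only and 1 in division only. TIP2-1 had 0.0858 and 0.267 FPKM in division and 103 and 90.3 in elongation, a difference of 6.37 ± 0.34 (SE), with limma adjusted p = 3.1e-05, while TIP4-1 fell from 2.16 and 2.996 to 0.265 and 1.11 FPKM. Proton pumps, which acidify the wall and the vacuole, rose in all 6 tested genes. The plasma membrane pump mha4 went from 12.7 and 14.4 to 88.0 and 79.5 FPKM, and the vacuolar pyrophosphatase vpp1 from 2.24 and 2.15 to 12.49 and 13.7, with differences of 2.54 ± 0.20 and 2.14 ± 0.15 (SE) and limma adjusted p = 1.1e-04 and 7.0e-05.

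Wall loosening and wall building genes rose in most of their lists. The xyloglucan enzyme gene xth1, whose product cuts and rejoins the tethers between cellulose fibres, had 1.13 and 1.43 FPKM in division and 134 and 161 in elongation. The difference was 6.02 ± 0.19 (SE), with limma adjusted p = 1.1e-05. Expansins, which loosen the wall without cutting it, rose in 6 of 10 tested genes and fell in 1, around a median of 1.26, and 16 were listed. Among the 8 that met the level rule in both zones, 4 rose and 1 fell. The gene expB6 had 0.0459 and 0.143 FPKM in division and 40.1 and 65.9 in elongation, and expa1 had 1.18 and 2.11 FPKM in division and 19.9 and 24.5 in elongation. The gene expB5 was listed at 0 in both division libraries and had 2.95 and 3.10 FPKM in elongation. Both expB6 and expB5 met the level rule in elongation only, so their direction was set by the rule. Not every expansin followed, since the most abundant of the uncalled, expB2, had 87.9 and 114 FPKM in division and 99.8 and 97.9 in elongation, and expa2 fell, with a log2 difference of -0.68 and limma adjusted p = 0.043.

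Cellulose synthases (CesA) are the subunits of the complexes that spin cellulose at the plasma membrane. Of 9 primary wall members 8 rose, with a median of 2.68. CesA-2 had 24.6 and 25.6 FPKM in division and 228 and 227 in elongation, and CesA-9 had 4.04 and 3.51 FPKM in division and 49.9 and 43.6 in elongation. In these genes the 2 libraries of a zone differed little beside the distance between zones, and the differences were 3.13 ± 0.14 and 3.32 ± 0.16 (SE), with limma adjusted p = 1.7e-05 and 2.5e-05. CesA-3 was the exception, at 36.9 and 35.8 FPKM in division and 41.1 and 35.5 in elongation, with limma adjusted p = 0.7. Among 4 tested secondary wall genes 3 rose. The brittle stalk gene bk2, which encodes a COBRA-like protein needed for cellulose in stiff walls, went from 0.337 and 0.253 to 25 and 26.4 FPKM. The gene cesa10 was the uncalled one, with 44.7 and 58.2 FPKM in division and 62.1 and 66.4 in elongation. COBRA-like and endoglucanase genes rose in 7 of 10, led by Cel12Chr1, from 0.909 and 1.36 to 25.9 and 25.6 FPKM.

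Other wall genes were divided. CslF6-1, which makes the mixed-linkage glucan typical of grass walls, was counted at 2 loci that each share a span with another. The first rose from 40.4 and 55.9 to 286 and 228 FPKM, a difference of 2.40 ± 0.28 (SE), with limma adjusted p = 5.3e-04, and the other had 0 and 2.85 FPKM in division and 3.05 and 22.9 in elongation with no call. CSLD1 went the other way, from 71.5 and 99.7 FPKM in division to 8.49 and 5.27 in elongation, a difference of -3.47 ± 0.34 (SE), with limma adjusted p = 2.9e-04. Of 11 tested lignin and phenylpropanoid genes 5 rose and 2 fell. The methyltransferase genes CCOAOMT2 and ccoaomt1 rose by 2.12 and 1.97 on the log2 scale. For ccoaomt1 this was 53.9 and 62.8 FPKM in division and 235 and 228 in elongation. The gene cad1, in the last step to lignin monomers, fell from 33.2 and 38.2 to 18.2 and 14.4 FPKM.

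**Figure D3:**
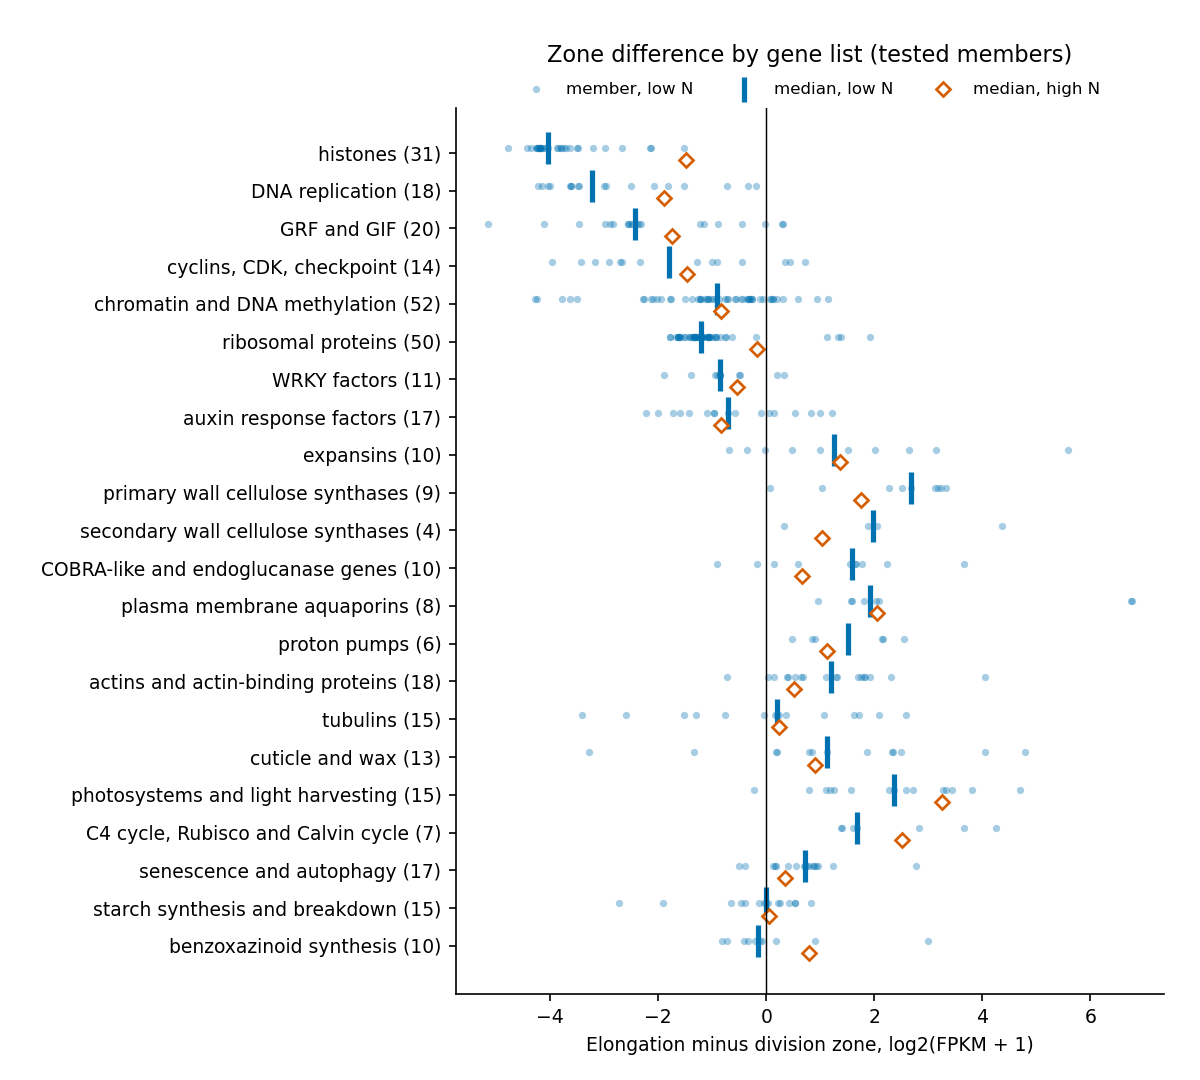
Each small point is a tested member of a gene list, placed by its zone difference at low nitrogen, and bars and diamonds mark the list medians at low and at high nitrogen, with the number of tested members in brackets. Among the 22 lists drawn, medians at low nitrogen run from -4.05 for histones to 2.68 for primary wall cellulose synthases.

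Tubulins, the subunits of microtubules, rose in 5 of 15 genes (33.3%) and fell in 4 (26.7%), with a median of 0.20. These shares are near the 27.0% and 23.2% of all loci. The beta-tubulin TUBB1 had 587 and 716 FPKM in division and 70.4 and 51.2 in elongation, whereas TUBB4 had 30.7 and 39.5 FPKM in division and 224 and 204 in elongation. Their differences were -3.41 ± 0.34 and 2.58 ± 0.23 (SE), with limma adjusted p = 2.9e-04 and 1.8e-04. TUBA2 and TUBA4, the most abundant of the uncalled, had at least 1476 FPKM in every LN library. Actin and actin-binding genes rose in 9 of 18 and fell in 1. The locus named Profilin, after the actin monomer-binding protein, went from 4.97 and 6.39 to 118 and 102 FPKM, a difference of 4.06 ± 0.18 (SE), with limma adjusted p = 1.7e-05. Of 12 tested Rop GTPases and SCAR pathway genes, which steer actin at the growing cell edge, 6 rose and 1 fell. Here rop9 went from 39.1 and 39.6 to 103 and 119.7 FPKM, and pan1, a receptor-like protein of stomatal subsidiary cell division, fell from 39.3 and 56.2 to 21.5 and 16.8.

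On the cuticle and wax list 8 of 13 genes rose, 1 fell and 4 were not called. The summed level of the list was 3165 and 4061 FPKM in division and 2955 and 2899 in elongation, with both elongation libraries below both division libraries. Most of the sum in each division library was LTP3, an uncalled gene given below. The order of the sums therefore does not describe the other genes of the list. The largest called rise was plt2, a lipid transfer protein gene, from 16.2 and 19.0 to 489 and 535 FPKM, a difference of 4.79 ± 0.29 (SE), with limma adjusted p = 4.6e-05, at a locus that shares a span. Of the 2 CER1 loci, named after an Arabidopsis gene for wax alkane synthesis, one rose and the other fell. The first had 0.0585 and 0 FPKM in division and 14.96 and 17.3 in elongation, and the other had 45.4 and 52.6 FPKM in division and 5.23 and 3.25 in elongation. The first was thus present in elongation and almost absent from division, and the other was reduced in elongation but still detected, with differences of 4.05 ± 0.20 and -3.28 ± 0.32 (SE) and limma adjusted p = 2.4e-05 and 2.7e-04. LTP3, the most abundant on the list, had 2863 and 3665 FPKM in division and 1341 and 1223 in elongation without passing, with limma adjusted p = 0.077.

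Some of the largest rises belonged to regulators. EREB46, whose RefSeq entry also carries the name of an Arabidopsis wax inducer, had 0.248 and 0.709 FPKM in division and 98.5 and 102 in elongation, a difference of 6.12 ± 0.20 (SE), with limma adjusted p = 1.1e-05, and it shares a span with another locus. MYB61 had 0 and 0.0878 FPKM in division and 60.7 and 72.4 in elongation. Myb20 had 0.158 and 0.508 FPKM in division and 51.1 and 48.1 in elongation, and MYB30 had 0.700 and 0.534 FPKM in division and 31.9 and 37.0 in elongation. All 3 MYB factors were below 1 FPKM in both division libraries and at 31.9 FPKM or more in both elongation libraries. Those 3 factors and EREB46 met the level rule in elongation only, so their direction was set by the rule. Over the whole family 17 of 42 tested rose and 12 fell, with a median of 0.22. Of the 42, 10 met the level rule in elongation only and 6 in division only. Among the 26 that met it in both zones, 8 rose and 6 fell. NAC factors rose in 8 of 15 and fell in 3, 6 of them having met the level rule in elongation only, with NAC63 going from 0.0407 and 0.222 to 4.29 and 5.58 FPKM. WRKY factors, many of which act in defence, fell in 9 of 11 and rose in none. The larger fall of the 2 loci named WRKY1 was from 8.82 and 12.02 to 2.04 and 2.06 FPKM, a difference of -1.89 ± 0.21 (SE), with limma adjusted p = 5.0e-04.

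In the homeodomain list 7 of 24 rose (29.2%) and 6 fell (25%), near the 27.0% and 23.2% of all loci. Of the 24, 4 met the level rule in elongation only. Among the 20 that met it in both zones, 3 rose and 6 fell. HB2 had 33.3 and 34.5 FPKM in division and 1.13 and 1.13 in elongation, and HB84 had 0.702 and 0.732 FPKM in division and 11.9 and 11.4 in elongation. Zones were separate in both, in opposite directions, with differences of -4.04 ± 0.14 and 2.88 ± 0.15 (SE) and limma adjusted p = 1.1e-05 and 2.9e-05. HB84 met the level rule in elongation only, so its direction was set by the rule. For bHLH factors the counts were 9 higher and 13 lower of 33, for AP2 and ERF factors 5 and 6 of 23, for bZIP factors 4 and 7 of 26, and for SBP factors 4 and 8 of 20. The higher and lower shares were 27.3% and 39.4% for bHLH factors, 21.7% and 26.1% for AP2 and ERF factors, 15.4% and 26.9% for bZIP factors, and 20.0% and 40.0% for SBP factors. The gene bHLH84 fell from 34.5 and 38.6 to 2.19 and 1.56 FPKM, and bHLH24 from 6.18 and 7.06 FPKM to a listed 0 in both elongation libraries. GRAS factors fell in 3 of 5, among them SCR, named after the SCARECROW gene of Arabidopsis root patterning, from 116 and 142 to 29.5 and 20.8 FPKM. TCP factors, several of which restrain or promote cell proliferation in leaves, were higher for 2 and lower for 3 of 7. TCP4 had 16.0 and 20.4 FPKM in division and 47.1 and 46.4 in elongation, while TCP5 had 12.02 and 16.3 FPKM in division and 5.66 and 5.14 in elongation. Smaller factor lists gave 2 higher and 2 lower of 7 MADS-box genes, 2 and 1 of 11 NF-Y subunits, 0 and 3 of 4 Dof factors, 0 and 1 of 5 LOB-domain factors and 2 and 3 of 7 GLK and ARR-B factors. The MADS-box shares were 28.6% each way, near those of all loci.

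Photosynthesis genes were on the elongation side. Of 15 tested genes of the photosystems and their antennae 12 rose and none fell, with a median of 2.37. The gene psbs1, whose product lets the antenna shed excess light as heat, had 2.31 and 3.34 FPKM in division and 113 and 83.1 in elongation, a difference of 4.69 ± 0.21 (SE), with limma adjusted p = 2.2e-05. PSAH, a photosystem I subunit, had 22.4 and 31.3 FPKM in division and 314 and 221 in elongation. The elongation replicates of the antenna gene lhcb6 were further apart, at 153 and 86.1 FPKM, and both were above the 7.65 and 12.1 FPKM of division. Summed FPKM of the list was 537 and 759.6 in the division libraries and 5303 and 2993 in the elongation libraries at low nitrogen. At high nitrogen the sums were 1364 and 1288 in division and 9637 and 17079 in elongation, so every HN library exceeded both LN libraries of its zone.

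All 7 tested genes of the C4 cycle, Rubisco and the Calvin cycle rose, with a median of 1.68, out of 11 listed. The Rubisco small subunit locus rbcS had 1.96 and 2.08 FPKM in division and 64.2 and 49.8 in elongation, and PEPC1, the enzyme that first fixes carbon in mesophyll cells of C4 leaves, had 1.11 and 1.36 FPKM in division and 5.86 and 6.499 in elongation. The list sum in elongation was 256 and 223 FPKM at low nitrogen against 910.2 and 1019 at high nitrogen. The regulator glk1, a switch for chloroplast genes, rose from 1.10 and 1.70 to 11.1 and 7.29 FPKM, a difference of 2.07 ± 0.26 (SE), with limma adjusted p = 7.1e-04. Of 4 tested genes listed by name under chlorophyll synthesis 3 rose. The uncalled one was elm1, which is not counted here as an exception in that pathway. Loci that carry plastid gene names rose in 7 of 14 and fell in none, and 8 of them met the level rule in elongation only. Reads of plastid transcripts and of their copies in the nuclear genome could not be told apart in that list.

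Ribosomal protein genes were lower in elongation. Of 50 tested loci with cytosolic-type names 40 fell, 4 rose and 6 were not called, with a median of -1.21. The names alone do not separate cytosolic from organellar forms in every case. One locus named RPL32 had 189 and 218 FPKM in division and 57.1 and 59.4 in elongation, a difference of -1.78 ± 0.25 (SE), with limma adjusted p = 0.0012. The gene rpl19 ran the other way, from 50.2 and 53.2 to 187 and 208 FPKM, a difference of 1.91 ± 0.17 (SE), with limma adjusted p = 1.7e-04. The summed level at low nitrogen was 14822 and 17878 FPKM in division and 6673 and 7983 in elongation. At high nitrogen the sums were 28265 and 23059 in division and 18561 and 29637 in elongation, which overlapped, and the list median there was -0.18. Replicate 2 of HN elongation, which gave the highest of these sums, also had the highest summed FPKM over all loci, and the part of that in the overlap was not tested. In the limma test of the zone difference between supplies none of the 50 loci was called, against 0.259% of all tested loci.

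**Figure D4:**
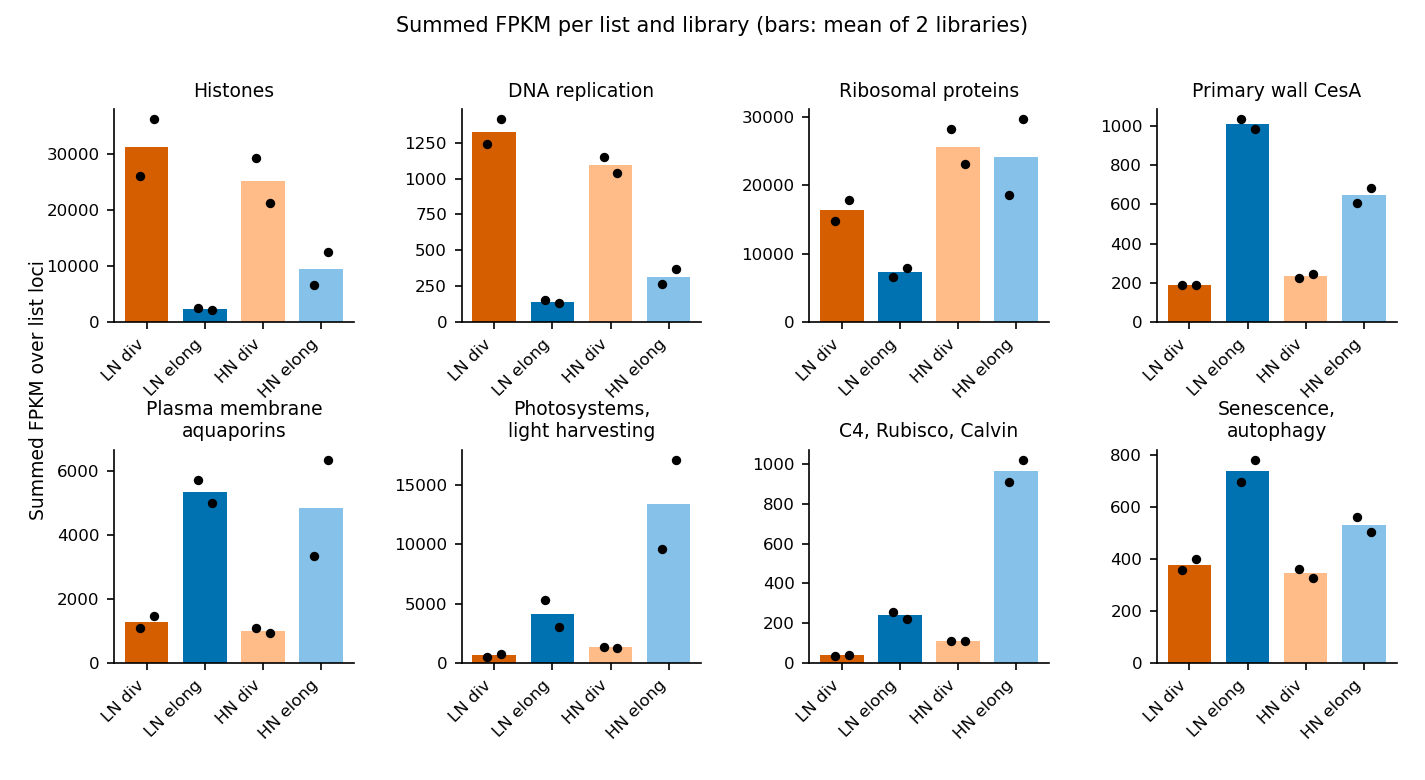
Bars give the mean and points the 2 libraries of summed FPKM over all listed loci of 8 gene lists, by zone and supply (LN, low nitrogen; HN, high nitrogen; div, division; elong, elongation). Ribosomal protein sums at low nitrogen separate the zones while those at high nitrogen overlap, and photosystem sums are higher at high than at low nitrogen within each zone. No tested ribosomal protein locus was called for a zone difference that differed between supplies.

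Genes of nitrogen uptake and assimilation were few among the tested loci. NRT1.2, named as a nitrate transporter, had 0.138 and 0.101 FPKM in division and 4.21 and 5.44 in elongation, a difference of 2.37 ± 0.18 (SE), with limma adjusted p = 1.0e-04. The nitrite reductase NIR had 3.39 and 3.93 FPKM in division and 12.8 and 6.98 in elongation, and NNR1, named as a nitrate reductase, had 0.291 and 0.379 FPKM in division and 3.91 and 1.52 in elongation. These are the 3 tested genes of 7 listed. NRT1.2 and NNR1 met the level rule in elongation only, the zone where they are high, so the direction of both was set by the rule. Of 9 tested genes of ammonium assimilation 5 rose and 1 fell. The glutamine synthetases, which join ammonium to glutamate, were divided, since gln4 rose from 49.7 and 61.0 to 114 and 122 FPKM while gln1 fell from 4.87 and 5.23 to 1.94 and 2.83, with differences of 1.09 ± 0.20 and -0.85 ± 0.21 (SE) and limma adjusted p = 0.0037 and 0.014. The asparagine synthetase asn1 had 66.1 and 69.9 FPKM in division and 53.2 and 54.5 in elongation, and its limma adjusted p was 0.081.

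Sugar genes were led by the vacuolar invertase ivr2, which splits sucrose in growing cells. It had 4.87 and 5.87 FPKM in division and 60.6 and 47.5 in elongation, a difference of 3.11 ± 0.19 (SE), with limma adjusted p = 4.5e-05. Of 7 tested genes of sucrose use and transport 4 rose and 2 fell. The sucrose synthase SH-1 fell from 154 and 168 to 81.7 and 77.9 FPKM, and sus1, far more abundant at 1199 and 1270.3 FPKM in division and 1996 and 1773 in elongation, was not called, with limma adjusted p = 0.25. Starch genes were rarely called, with 1 higher and 2 lower of 15, and the larger fall was Agp2, a subunit of ADP-glucose pyrophosphorylase, from 30.0 and 32.7 to 3.81 and 3.96 FPKM.

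Among hormone genes the gibberellin lists had few members, tested or not. No synthesis gene of the ga20ox type, no inactivation gene and no receptor gene was matched by name. Those steps were therefore not examined here. The gene an1, an ent-copalyl diphosphate synthase gene at the entry to the pathway, fell from 2.59 and 1.66 to 0.244 and 0.227 FPKM, a difference of -1.32 ± 0.23 (SE), with limma adjusted p = 0.0031. CPS1, of the same enzyme class, had 6.23 and 4.40 FPKM in division and 5.02 and 5.71 in elongation with overlapping zones and limma adjusted p = 0.95. Of 7 listed synthesis loci only these 2 passed the level rule. CYP88A1 and ga3ox2 did not, with at most 0.737 and 0.0444 FPKM in any LN library. The DELLA repressors, which gibberellin removes, were not called. D8 had 75 and 102 FPKM in division and 76.2 and 67.1 in elongation with limma adjusted p = 0.5, and d9 had 20.3 and 29.2 FPKM in division and 17.3 and 15.4 in elongation with limma adjusted p = 0.059.

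Auxin response factors fell in 10 of 17 and rose in 3, with a median of -0.71. ARF3 had 116 and 97.7 FPKM in division and 25.9 and 18.8 in elongation, a difference of -2.22 ± 0.19 (SE), with limma adjusted p = 1.5e-04. ARF18, the most abundant uncalled member, had 165 and 103 FPKM in division and 135.1 and 136 in elongation. Aux/IAA repressors were 1 higher and 1 lower of 3. Genes of auxin synthesis and transport were evenly split, with 4 higher and 4 lower of 9. The efflux carrier gene PIN10a rose from 0.937 and 1.57 to 17.9 and 17.8 FPKM, whereas PIN1d fell from 17.1 and 16.5 to 9.96 and 7.72. Type-A response regulators, which are switched on by cytokinin and damp its signal, fell in 5 of 9 and rose in 2. RR7 went from 14.7 and 17.4 to 3.35 and 3.91 FPKM, a difference of -1.88 ± 0.19 (SE), with limma adjusted p = 3.4e-04. At high nitrogen RR7 had 23.3 and 20.1 FPKM in division and 16.0 and 22 in elongation, and the test of the difference between supplies gave -1.68 ± 0.27 (SE), with limma adjusted p = 0.077. Cytokinin synthesis, breakdown and receptor genes were 4 higher and 3 lower of 11. For brassinosteroids, DWF1 had 292 and 351.5 FPKM in division and 338 and 307 in elongation, and neither it nor na1 was called.

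TIFY and JAZ repressors fell in 9 of 16 and rose in 4, although 4 of the 16 met the level rule in division only. Among the 12 that met it in both zones, 5 fell and 4 rose. TIFY4 had 13.8 and 22.1 FPKM in division and 1.52 and 1.85 in elongation, and TIFY17 had 3.21 and 3.64 FPKM in division and 9.43 and 10.3 in elongation. Lipoxygenases and jasmonate synthesis genes rose in 6 of 18 and fell in 4, shares (33.3% and 22.2%) near those over all loci. The extremes were lox12, from 2.02 and 2.57 to 40.0 and 42.7 FPKM, and lox11, from 29.2 and 43.5 to 1.76 and 2.17, with differences of 3.69 ± 0.17 and -3.63 ± 0.24 (SE) and limma adjusted p = 2.4e-05 and 5.6e-05. Abscisic acid receptors, phosphatases and kinases had 8 higher and 6 lower of 33, or 24.2% and 18.2%, near the shares of all loci. The kinase gene SnRK2.11 rose from 5.58 and 6.39 to 35.2 and 35.8 FPKM.

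Genes named for senescence and autophagy rose in 11 of 17 and fell in none, with a median of 0.72. The protease gene see2b, of the legumain type, went from 15.9 and 16.0 to 129.8 and 103 FPKM, a difference of 2.78 ± 0.15 (SE), with limma adjusted p = 3.2e-05. ATG3, an enzyme that attaches ATG8 to membranes, went from 18.5 and 18.2 to 41.8 and 47.1 FPKM, and Atg8b from 51.7 and 55.9 to 91.8 and 90.6. The uncalled atg6 had 23.2 and 18.8 FPKM in division and 28.7 and 26.9 in elongation. Glutathione S-transferases rose in 10 of 23 and fell in 2, from gst9 with 1.53 and 1.46 FPKM in division and 64.9 and 73.9 in elongation to gst41 with 68.5 and 110.0 FPKM in division and 7.17 and 4.53 in elongation. Heat shock genes were 5 higher and 2 lower of 19 (26.3% and 10.5%). Protein disulfide isomerases and other chaperones of the endoplasmic reticulum were 5 and 0 of 18 (27.8% and 0.00%). The higher shares of both lists were near the 27.0% of all loci. Potassium transporters were 7 and 0 of 14 (50.0% and 0.00%). Benzoxazinoid genes, which make the defence compounds of young maize, were called in 2 of 10, both higher. BX6 had 167 and 259 FPKM in division and 101 and 136 in elongation with no call. Among 10 organ size genes of the ARGOS and CNR families 3 rose (30.0%) and 2 fell (20.0%), near the shares of all loci. CNR7 rose from 1.08 and 1.12 to 26.4 and 31.6 FPKM.

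Further large rises had names outside these lists. The locus znod1 had 2.34 and 3.27 FPKM in division and 368 and 376 in elongation, a difference of 6.63 ± 0.23 (SE), with limma adjusted p = 1.1e-05. The beta-glucosidase gene glu2 had 0.103 and 0.101 FPKM in division and 63.9 and 93.7 in elongation. The gene aba1, also called asr1 after its response to abscisic acid, stress and ripening, had 1.06 and 1.29 FPKM in division and 98.8 and 186 in elongation, and gol1 had 0.131 and 0.181 FPKM in division and 50.9 and 55.7 in elongation. None of these 4 exceeded 3.27 FPKM in a division library. Of them, glu2 and gol1 met the level rule in elongation only, so their direction was set by the rule. The largest rises and falls of all had an identifier and no name. GRMZM2G009465 at chromosome 1, 120200389 to 120202682 went from 0.766 and 0.459 to 2736 and 3069 FPKM, and GRMZM2G089493 from 0.624 and 0.231 to 1004 and 1352. GRMZM5G837022, which shares a span with another locus, had 309 and 221 FPKM in division and was listed at 0 in both elongation libraries. At high nitrogen it had 94.8 and 101 FPKM in division and 130 and 309 in elongation, with no call (limma adjusted p = 0.068). The difference between supplies at that locus was -9.06 ± 0.54 (SE), with limma adjusted p = 0.0041. GRMZM2G112210 had 272 and 298 FPKM in division and 0.465 and 0.877 in elongation. All 4 loci without a name met the level rule in 1 zone only, so their direction was set by the rule.

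The zone difference at low nitrogen was then tested against that at high nitrogen in the same model, as the interaction of zone and supply. Of 23942 loci 62 were called (0.259%), 30 with a difference more positive at low nitrogen (0.125%) and 32 with one more negative (0.134%), and 4298 had an unadjusted p under 0.05. Of the 62, 59 were also called for the zone difference at low nitrogen, 54 had the larger absolute difference there and 13 had opposite signs at the 2 supplies. A further 8 were listed at 0 in every HN library. The count was unstable. It became 5 and 11 without HN division replicate 1 or 2, and 4043 and 16 without HN elongation replicate 1 or 2, while leaving out an LN library gave 45 to 82. With all libraries kept it was 7 with the replicate number as a block, 4 with a minimum log2 difference of 1, 253 with equal totals and 707 with quantile scaling. The HN elongation replicates had a median SD of 0.271 per locus on the log2 scale, against 0.101 to 0.152 in the other groups.

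Named loci whose difference was more positive at low nitrogen were CER1, CesA-7 and IRL. The CER1 locus that rose, already described, had 0.146 and 0.506 FPKM in division and 2.49 and 2.05 in elongation at high nitrogen, well under its LN elongation values. The difference between supplies was 2.74 ± 0.28 (SE), with limma adjusted p = 0.039. CesA-7 had 7.61 and 7.54 FPKM in LN division and 75.7 and 77.5 in LN elongation, and at high nitrogen 17.9 and 19.9 FPKM in division and 54.3 and 42.9 in elongation. Its division level was thus lower and its elongation level higher at low nitrogen, and the difference between supplies was 1.87 ± 0.22 (SE), with limma adjusted p = 0.04. IRL, named as an isoflavone reductase-like gene, had 1.59 and 1.92 FPKM in division and 32.9 and 38.6 in elongation at low nitrogen and 6.79 and 6.04 FPKM in division and 28.8 and 25.7 in elongation at high nitrogen, a difference of 1.81 ± 0.22 (SE), with limma adjusted p = 0.042.

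On the negative side, yab14 had 4.52 and 5.98 FPKM in HN division and was listed at 0 in both HN elongation libraries, so its level in division was higher at low nitrogen. The difference between supplies was -2.11 ± 0.24 (SE), with limma adjusted p = 0.04. For bHLH116 the LN values were 6.23 and 7.33 FPKM in division and 0.509 and 0.365 in elongation, while no HN library exceeded 0.222 FPKM, a difference of -2.66 ± 0.24 (SE), with limma adjusted p = 0.021. SLD5 and nfd106 fell towards elongation at both supplies and by more at low nitrogen. The HN elongation values were 11.1 and 13.4 FPKM for SLD5 and 72.7 and 96.5 for nfd106, above their LN values given earlier, with differences between supplies of -2.44 ± 0.28 and -2.23 ± 0.27 (SE) and limma adjusted p = 0.04 and 0.042. The named factor bHLH108, which averaged under 5 FPKM in every group, had 5.47 and 4.14 FPKM in LN division and 1.04 and 1.05 in LN elongation. At high nitrogen it had 0.0608 and 0 FPKM in division and 1.64 and 1.59 in elongation, so its zones were in the opposite order there, with a difference of -2.84 ± 0.25 (SE) between supplies and limma adjusted p = 0.021. For bHLH23, with 47.8 and 57.8 FPKM in LN division and 9.02 and 11.1 in LN elongation, the difference between supplies was -2.01 ± 0.23 (SE), with limma adjusted p = 0.04. ROA1 and ROA4 were also among the 62, with -1.61 ± 0.19 and -1.51 ± 0.18 (SE) and limma adjusted p = 0.04 and 0.042. CAB48, an antenna protein locus that carries several identifiers and shares a span, had 6.66 and 6.96 FPKM in LN division and 7.82 and 4.10 in LN elongation. At high nitrogen it had 13.2 and 15.4 FPKM in division and 87.2 and 97.8 in elongation. Its zones overlapped at low nitrogen and were separate at high nitrogen, with a difference of -2.83 ± 0.36 (SE) between supplies and limma adjusted p = 0.049.

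**Figure D5:**
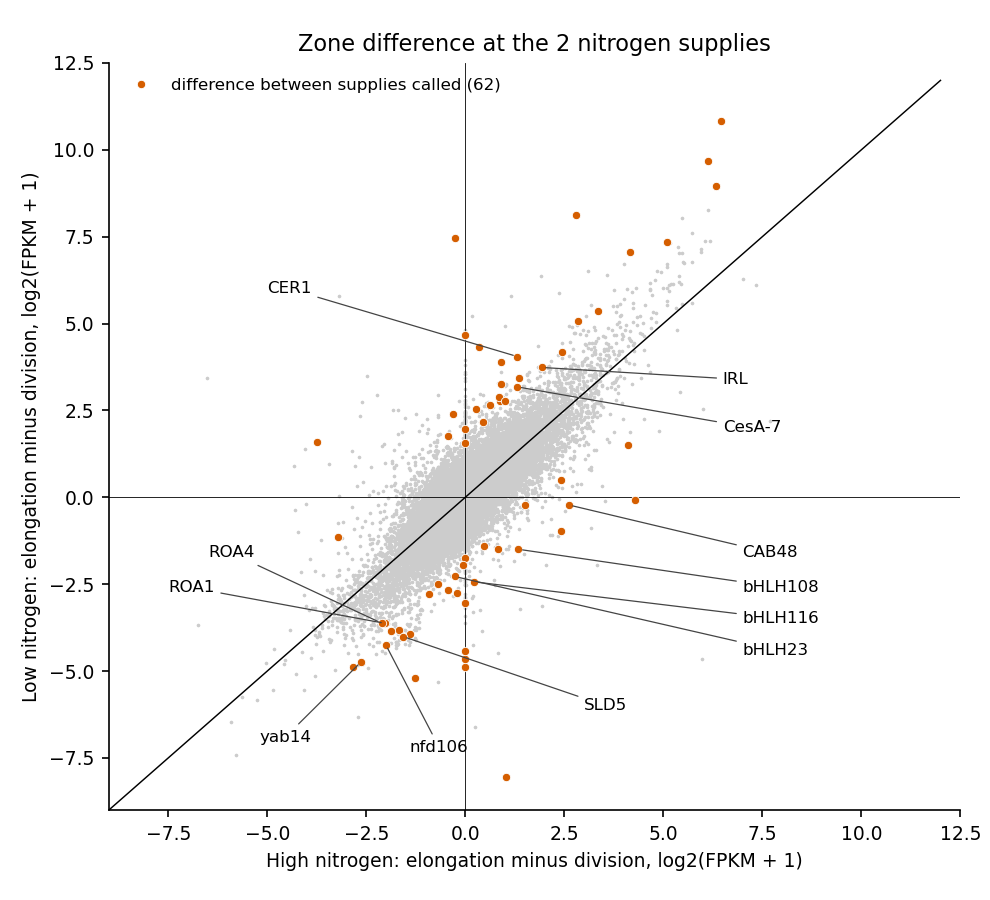
Each grey point is a tested locus, placed by its zone difference at high nitrogen (x axis) and at low nitrogen (y axis), and orange points are the 62 loci whose difference was called to differ between supplies, with 12 of them named. The line marks equal differences, and how closely the loci follow it was not measured. By the limma interaction of zone and supply, 4298 of the 23942 loci had an unadjusted p under 0.05.

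Side by side, list medians at low and high nitrogen were -4.05 and -1.48 for histones, -3.23 and -1.89 for DNA replication, -2.44 and -1.75 for GRF and GIF genes, 2.68 and 1.75 for primary wall cellulose synthases, and 2.37 and 3.26 for photosystem genes. None of the 31 histone loci was called in the interaction, and the 18 tested replication loci held 3 of the 62. The share called among all tested loci was 0.259%. Over all loci the medians were 0.07 and -0.04.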

How the data were processed

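RNA was sequenced from 2 leaf zones at 2 nitrogen supplies, in 8 libraries. The authors deposited a table of FPKM per locus, a unit judged here from the values, and the submitters' processing notes name TopHat2, edgeR and B73 RefGen_v3 without settings. Repeated lines of a locus were merged, leaving 43110 loci. Names came from the table or, by identifier, from RefSeq for Zm-B73-REFERENCE-NAM-5.0.

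Loci averaging 1 FPKM or more in either low nitrogen zone were tested on log2(FPKM + 1) with limma 3.58.1 in R 4.3.3, using means of 4 groups over 8 libraries and a variance trend. Contrasts were the zone difference at each supply and their interaction, with Benjamini-Hochberg adjustment over all 23942 loci. The fit was tested on simulated data. The members and gene lists were chosen with earlier results of these data known.

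Named loci were the 12 largest informatively named rises and falls with separated zones and at least 5 FPKM, up to 4 called members of each list by p and up to 2 uncalled by level, any member of a list with at most 8 tested, and the 5 largest interactions in each direction with 5 FPKM or more in any group. The genes pan1, gln1, cad1, expa2, lg1, bHLH108, bHLH23 and the 4 loci without a name fall outside that rule and were picked with their values in view. Alternatives covered other pseudocounts, filters, scalings and models, a minimum difference and leaving out each library.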

Additional observations from a re-analysis of the deposited data

Results flagged for a closer look

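The zone difference at low nitrogen was called to differ from that at high nitrogen at 62 loci, by the limma interaction of zone and supply. Among named loci it was more positive at low nitrogen by 2.74 on the log2 scale for CER1, 1.87 for CesA-7 and 1.81 for IRL. It was more negative for CAB48, with -2.83, for bHLH116, with -2.66, for SLD5, with -2.44, for nfd106, with -2.23, and for yab14, with -2.11. Outside the naming rule it was also more negative for bHLH108, with -2.84, and for bHLH23, with -2.01. The spread of the high nitrogen elongation replicates was the widest of the 4 groups, with a median SD of 0.271 on the log2 scale, and its part in these calls was not tested.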

How the results depend on the processing

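No zone difference called at low nitrogen changed sign under any alternative run. The count of loci higher in elongation ran from 4534 to 7762 and that of lower loci from 3699 to 6551 when each library was left out in turn. Requiring a log2 difference of more than 1 in the test left 1592 higher, 1250 lower and 4 interaction loci. The 24 named zone genes stayed called throughout, while checks of the named interaction genes kept the call in 71 cases and lost it in 73, with no change of direction. Interaction counts were 152 with no filter, 29 at 5 FPKM or more, 253 with equal totals, 112 with upper-quartile scaling and 707 with quantile scaling, and from 5 to 4043 without 1 library. Of all called zone loci 53.9% were higher, against 47.9% with quantile scaling. Same-numbered replicates of the low nitrogen zones did not deviate together (r = -0.035), so the numbers were not taken as pairs. Over all pairs of groups r ran from -0.20 (HN and LN division) to 0.35 (HN elongation and LN division). These values do not settle whether the number matters for the interaction. With the replicate number as a block the counts were 6200 higher, 5249 lower and 7 in the interaction. The cause of these changes was not tested. With 2 libraries per group and unknown depth, low loci are the least certain.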
